A study of Mus musculus with 74 samples.

Results

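The genes that load peptides onto MHC class I molecules were followed across a wild type mouse macrophage line and 2 lines derived from it, at rest and after lipopolysaccharide (LPS). The 9 genes were chosen by name: the class I heavy chains H2-K1, H2-D1, H2-Q7 and H2-T23, the light chain gene B2m, the loading genes Tapbp, Tap1 and Tap2, and the regulator Nlrc5. Earlier results of these data were known when they were chosen. All 9 were found among the 24851 genes of each cell line table and passed the filter on low values, which asked for a mean of at least 1 normalized read.

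The RNA libraries came from RAW264.7, a transformed macrophage-like line from a tumour ascites, and from lines numbered 264 and 3205. According to the series text the lines are wild type, hypomorphic, or double knockouts of H3f3a and H3f3b made by CRISPR; which of these 264 and 3205 are cannot be read from the labels. Each number stands for 1 line. Every line was sampled at 0, 60 and 120 min of LPS with 2 libraries, which gave 18 libraries in 9 groups. ChIP values came from 12 libraries of primary macrophages grown from bone marrow, with 1 library at 0 and 1 at 60 min for each of H3S31ph, H3S28ph, H3K27ac, H3K36me3, H3K36me2 and H3.3. LPS of S. typhosa at 100.0 ng/mL is stated for the primary macrophages; no source used here gives the dose in the lines. For H2-Q7 the authors' own RNA fold change of primary macrophages is also given. Bone marrow macrophage samples labelled BMDM_LPS_DMSO at 0, 60 and 120 min are in the series. The column headers do not say whether that fold change comes from them. Their own values, and those of the other samples of the 74, were not analysed here.

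Class I molecules show fragments of a cell's own proteins to CD8+ T cells. A polymorphic heavy chain pairs with beta-2 microglobulin in the endoplasmic reticulum, TAP1 and TAP2 pump peptides in from the cytosol, and tapasin holds the empty molecule beside the pump until a good peptide binds. NLRC5 is the transactivator of class I promoters, which it reaches through factors bound at conserved X and Y boxes, and interferon and NF-kB signals act on the same promoters through an interferon response element and a kappa B site. Macrophages make these molecules at rest, and interferons released after LPS are known to raise them.

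Promoter sequences are shown because they carry the sites that the class I genes share. They were taken from a RefSeq table of GRCm38.p6 (the C57BL/6J reference, the assembly of mm10), which held 7 of the 9 genes. In each window of 300 bases, from 250 before the start site to 50 after it, both strands were searched for CCAAT (the core of the Y box), TGACG (the core of a CRE or X2 box), GAANNGAAA (an IRF element) and the NF-kB consensus. Matches are in capitals, each sequence reads 5′ to 3′ along the gene, and all printed bases lie before the start site that the promoter table lists. For H2-K1, which had 2 listed starts, the first was used, and its 30 printed bases lie inside the gene span given further on. The last 9 bases of the H2-Q7 stretch also lie inside that gene's span.
H2-K1, chr17:34000429-34000458, minus strand: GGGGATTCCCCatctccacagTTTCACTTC
H2-D1, chr17:35262918-35263050, plus strand: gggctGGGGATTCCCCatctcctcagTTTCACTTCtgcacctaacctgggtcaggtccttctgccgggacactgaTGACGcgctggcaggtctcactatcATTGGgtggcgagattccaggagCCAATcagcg
H2-Q7, chr17:35439017-35439148, plus strand: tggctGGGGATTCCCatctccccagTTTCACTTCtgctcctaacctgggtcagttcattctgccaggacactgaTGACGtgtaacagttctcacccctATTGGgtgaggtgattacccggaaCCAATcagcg
B2m, chr2:122147556-122147643, plus strand: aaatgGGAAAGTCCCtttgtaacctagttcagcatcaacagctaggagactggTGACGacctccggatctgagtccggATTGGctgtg
Tap1, chr17:34187329-34187479, plus strand: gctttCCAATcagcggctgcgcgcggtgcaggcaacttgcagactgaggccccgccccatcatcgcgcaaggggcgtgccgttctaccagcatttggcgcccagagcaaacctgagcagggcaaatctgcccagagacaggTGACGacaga
Tapbp, chr17:33919228-33919322, plus strand: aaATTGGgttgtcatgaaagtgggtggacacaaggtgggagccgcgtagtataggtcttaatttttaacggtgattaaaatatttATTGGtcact

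H2-K1, H2-D1 and H2-Q7 held the same order of matches: NF-kB, then an IRF element, then TGACG, then ATTGG, the reverse complement of CCAAT. In H2-K1 and H2-D1 the NF-kB consensus matched at a pair of positions 1 base apart, so those matches overlap, and the shorter H2-K1 stretch shows only the NF-kB and IRF part. B2m held the NF-kB, TGACG and CCAAT matches and no IRF match. No NF-kB or IRF match was found in the windows of Tap1, Tapbp and H2-T23, which says only that these letters are not there. CCAAT was present in 7 of 7 members and in 37.9% of the 27025 promoters of that table, TGACG in 5 members and 21.0%, GAANNGAAA in 3 members and 7.56%, and the NF-kB consensus in 4 members and 8.18%. The IRF match and the first NF-kB match had the same letters in H2-K1, H2-D1 and H2-Q7. These related genes are therefore not separate occurrences to set beside the share of all promoters. RAW264.7 derives from a BALB/c mouse, whose class I alleles differ from the reference, so the line's own promoter bases can differ from these.

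In mm10 the members on chromosome 17 are Tapbp (33919478 to 33929290), H2-K1 (33996012 to 34000619), Tap1 (34187556 to 34197225), Tap2 (34204479 to 34216321), H2-D1 (35263094 to 35267497), H2-Q7 (35439140 to 35443773) and H2-T23 (36029977 to 36032701). B2m lies on chromosome 2 (122147687 to 122153082) and Nlrc5 on chromosome 8 (94434335 to 94527272). Heavy chain genes share sequence with each other, and reads of a BALB/c-derived line were aligned to another haplotype. Counts of H2-K1, H2-D1, H2-Q7 and H2-T23 may therefore be split or lost between related genes and are uncertain. No level is compared between genes here, since the tables give no gene lengths.

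Counted reads per library ran from 13.1 M to 53.9 M. Values are normalized reads, a library's count divided by its size factor. The 6 RAW264.7 libraries had 2055 to 3109 normalized reads of H3f3a, an H3.3 gene, those of line 264 had 172 to 236 and those of line 3205 had 37.5 to 76.2. H3f3b, the other H3.3 gene, ran from 13623 to 34155, from 5642 to 17765 and from 7177 to 13284, so reads of both genes were still counted in both edited lines. Marker sums moved with the lines. Macrophage markers (7 of 8 listed were in the tables) summed to 347500 to 461100 normalized reads in RAW264.7 libraries. The sums were 120200 to 194000 for line 264 and 181900 to 241300 for line 3205, with no overlap between RAW264.7 and either. In that sum Lyz2 had the widest range over all libraries, 38700 to 294000, and Cd14 ran from 6640 to 98500. Csf1r ran from 42400 to 68200, Cd68 from 11500 to 25100, Itgam from 6280 to 12500, Fcgr1 from 1510 to 7840 and Mertk from 0 to 128. These ranges are not split by line, so the sum does not show that every marker was lower. B cell markers (4 of 5) summed to 22.2 to 152 in line 3205 and 1.48 to 6.11 elsewhere, nearly all of it Cd79b, while Ms4a1 and Pax5 reached at most 3.42 and 0.661. Dendritic cell markers (4 of 4) summed to 267.6 to 350.3 in RAW264.7 at 120 min and 33.3 to 128.6 in all other groups, nearly all of it Zbtb46 and Xcr1, with Flt3 at most at 1.96 and Cd209a at 4.32. Neutrophil markers (4 of 4) summed to 11.6 to 32.6 in line 3205 and 0 to 10.4 elsewhere, T and NK cell markers (2 of 6) to 1.20 to 11.1 and 0 to 2.59, and fibroblast markers (4 of 5) to 0 to 3.48 over all libraries. The neutrophil sum was mostly S100a8, while S100a9, Mpo and Ly6g reached at most 2.45, 1.87 and 0.91. The part of these shifts in the differences between lines and times was not tested. In bulk RNA, fewer cells expressing a gene and less RNA per cell cannot be told apart.

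**Figure D1:**
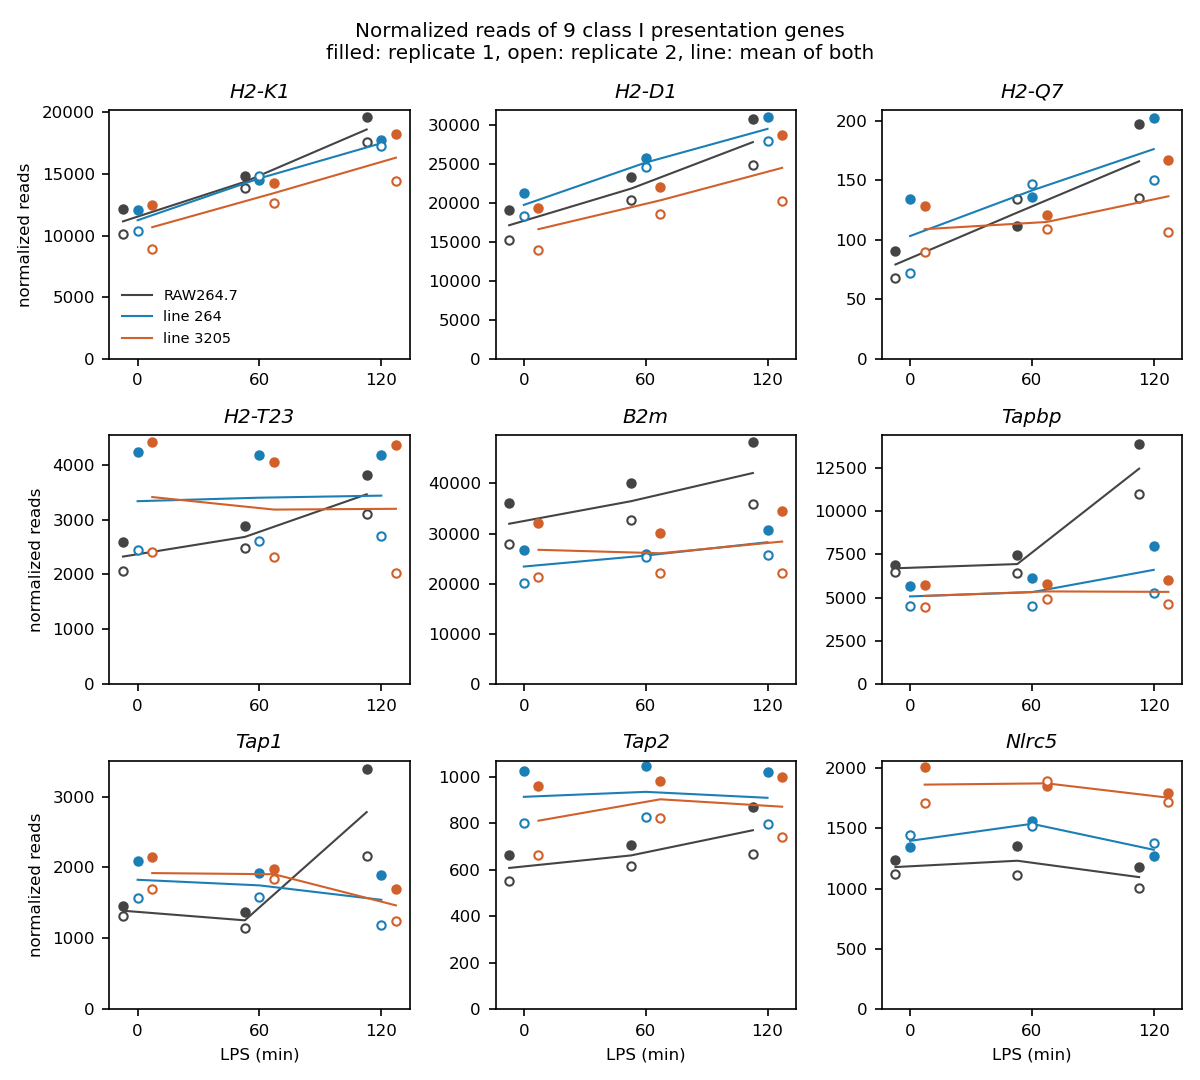
Normalized reads (y axis, from 0) of each of the 9 genes at 0, 60 and 120 min of LPS (x axis) in RAW264.7, line 264 and line 3205. Filled points are replicate 1, open points replicate 2 and lines join the means of both. Tapbp and Tap1 climb between 60 and 120 min in RAW264.7, Nlrc5 is highest in line 3205 at every time, and H2-K1 and H2-D1 climb in all 3 lines.

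Both libraries of H2-K1 and H2-D1 were higher at 120 min than at 0 min in all 3 lines. Tapbp and Tap1 were higher after 120 min in RAW264.7 and stood lower in both edited lines than in RAW264.7 at that time. Nlrc5 was higher in line 3205 at every time. Few of these differences passed the limma test on their own, and more did so when the replicate number entered as a block.

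Log2 differences below are from limma on log2(normalized reads + 1), ± SE, with 2 libraries a group, and a gene was called at an adjusted p (Benjamini-Hochberg over all genes) below 0.05. Nothing in the labels says that the 2 libraries of a group are separate cultures, so the spread behind each p-value is that of these libraries and may be technical. Replicate 1 was above replicate 2 in 9 of 9 groups for H2-D1, H2-T23, B2m, Tapbp, Tap1 and Tap2, in 8 for H2-K1, in 7 for H2-Q7 and in 6 for Nlrc5. The median ratio of replicate 1 to replicate 2 ran from 1.05 for Nlrc5 to 1.6 for H2-T23. A replicate block, a fit with the replicate number as a term, therefore stands beside a result where it changes a call; it leaves the log2 difference as it is and changes the SE.

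After 60 min of LPS 0 of 9 members were called in RAW264.7, where 2.98% of all tested genes were, 0 in line 264 (1.19%) and 0 in line 3205 (1.23%). After 120 min 2 of 9 were called in RAW264.7, H2-K1 and Tapbp, both higher, against 10.6% of all genes called and 5.08% higher. In line 264 (5.43% called) and line 3205 (5.03% called) 0 were. With the replicate block 8 of 9 rose in RAW264.7 (23.7% of all genes called, 11.3% higher). In line 264 3 rose (16.4% called, 7.77% higher) and in line 3205 2 did (14.3% called, 7.18% higher). The members were chosen with earlier results of these data known, and the heavy chain genes share sequence. Their counts beside the share of all genes are therefore no test of the set. The median log2 difference of the 9 members at 120 min was 0.70, 0.28 and 0.08 in RAW264.7, 264 and 3205, where the medians of all tested genes were 0.0, -0.01 and -0.03. At an unadjusted p below 0.05, limma counted 0, 1 and 0 members at 60 min and 5, 2 and 2 at 120 min in RAW264.7, 264 and 3205; edgeR without the block called 0, 0 and 0 and then 2, 0 and 0, and DESeq2 0, 0 and 0 and then 4, 1 and 1.

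Between unstimulated lines, 0 members differed for line 264 against RAW264.7 (13.2% of all genes called), 1 for line 3205 against RAW264.7 (14.3%) and 0 for line 3205 against line 264 (10.4%). At an unadjusted p below 0.05 limma counted 1, 2 and 1, edgeR called 0, 1 and 0, and DESeq2 0, 1 and 1. With the block these counts were 4 (23.3%), 5 (26.5%) and 1 (21.2%). At 60 min they were 0 (15.3%), 2 (15.4%) and 0 (10.2%), and with the block 5 (26.9%) and 5 (27.9%) for the comparisons with RAW264.7. At 120 min they were 1 (13.5%), 2 (13.9%) and 0 (9.0%), and with the block 3 (25.3%), 4 (27.2%) and 1 (19.5%). Without the block the counts were 0 to 2 of 9, where 9.0% to 15.4% of all genes were called. With it, the counts for 264 and 3205 against RAW264.7 were 3 to 5 of 9, where 23.3% to 27.9% of all genes were called. Both comparisons share the RAW264.7 libraries, and the choice of members with earlier results known applies here too.

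Tests of whether a line's LPS response differed from that of RAW264.7 called 0 members at 60 min, for line 264 (0.0173% of all genes called) and for line 3205 (0.00578%). At 120 min they also called 0 members for line 264 (0.0229%) and 0 for line 3205 (0.00573%). At an unadjusted p below 0.05 limma counted 0 and 0 members at 60 min and 1 and 2 at 120 min, and edgeR and DESeq2 called 0 in each. With the block 1 member was called for each line at 120 min, Tap1, against 0.258% and 0.682% of all genes.

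**Figure D2:**
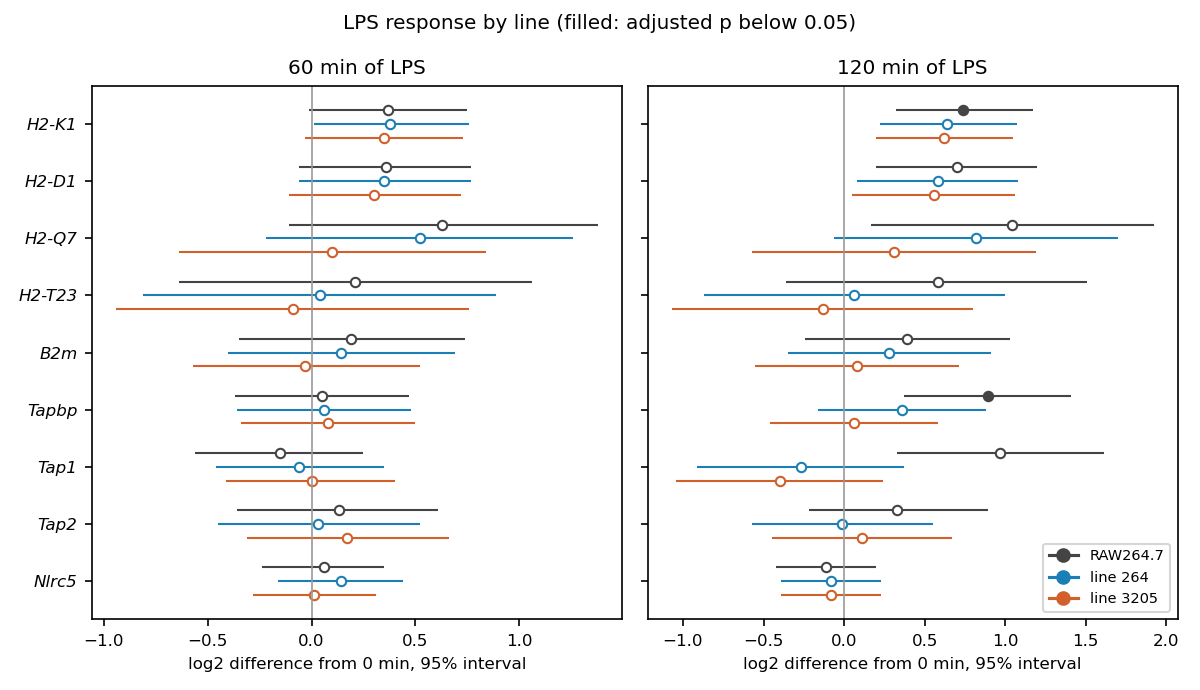
Log2 difference from 0 min (x axis, with its 95% interval) of each gene (y axis) after 60 min (left) and 120 min (right) of LPS, in RAW264.7, line 264 and line 3205, from the fit without a block. Filled points passed adjusted p below 0.05, which H2-K1 and Tapbp did in RAW264.7 at 120 min; Tap1 lies at 0.97 in RAW264.7 and below 0 in both edited lines.

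H2-K1 encodes a classical heavy chain. In RAW264.7 it stood at 12197 and 10125 normalized reads at 0 min (replicates 1 and 2), 14852 and 13888 at 60 min and 19642 and 17599 at 120 min. Line 264 had 12085 and 10419, 14498 and 14808, and 17749 and 17264 at the same times, and line 3205 had 12452 and 8925, 14266 and 12650, and 18257 and 14407. Both libraries at 120 min were above both at 0 min in each line, and each edited line overlapped RAW264.7 at every time. The log2 difference at 60 min was 0.37, 0.38 and 0.35, each ± 0.17, for RAW264.7, 264 and 3205 (adjusted p = 0.41, 0.65 and 0.75). At 120 min H2-K1 rose 1.67-fold in RAW264.7, by 0.74 ± 0.19 (adjusted p = 0.035). In lines 264 and 3205 the 120 min difference was 0.64 ± 0.19 and 0.62 ± 0.19 (adjusted p = 0.092 and 0.11), and with the replicate block all 3 lines were called (adjusted p = 0.00097, 0.0035 and 0.0045). The 0.62 of line 3205 was 0.38 without its replicate 2 at 0 min. Leaving out any 1 of the 4 RAW264.7 libraries ended that call, with log2 differences from 0.61 to 0.88 and adjusted p from 0.084 to 0.23. The response of line 264 minus that of RAW264.7 was -0.10 (95% interval -0.70 to 0.50) and that of line 3205 -0.12 (-0.72 to 0.48), neither called, so the intervals still hold differences nearly as large as the response itself.

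H2-D1, the other classical heavy chain gene of the set, followed the same course. RAW264.7 had 19114 and 15233 normalized reads at 0 min, 23398 and 20362 at 60 min and 30818 and 24898 at 120 min. Line 264 had 21261 and 18304, 25849 and 24611, and 31091 and 28021, and line 3205 had 19352 and 13983, 22133 and 18613, and 28803 and 20299. In each line both 120 min libraries were above both 0 min libraries. The 120 min log2 difference was 0.70, 0.58 and 0.56, each ± 0.22, for RAW264.7, 264 and 3205, with adjusted p = 0.083, 0.20 and 0.24, and with the replicate block adjusted p = 0.0013, 0.0053 and 0.0074. The 0.56 of line 3205 was 0.32 without its replicate 2 at 0 min and 0.30 without its replicate 1 at 120 min. At 60 min the differences were 0.36, 0.35 and 0.30, each ± 0.19 and none called with or without the block. The 120 min response differed from that of RAW264.7 by -0.12 (-0.83 to 0.59) in line 264 and -0.14 (-0.85 to 0.57) in line 3205.

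H2-Q7, a nonclassical heavy chain of the Q region, was counted at far fewer reads. RAW264.7 had 90.4 and 68.3 normalized reads at 0 min, 111 and 135 at 60 min and 197 and 135 at 120 min. Line 264 had 135 and 71.8, 136 and 147, and 202 and 150, and line 3205 had 128 and 89.7, 121 and 109, and 167 and 106. The 0 and 120 min libraries did not overlap in RAW264.7 and line 264 and did in line 3205. H2-Q7 was 2.06-fold higher at 120 min in RAW264.7, a log2 difference of 1.04 ± 0.39, and 0.82 ± 0.39 in line 264 (adjusted p = 0.13 and 0.31), and with the replicate block both were called (adjusted p = 0.0038 and 0.019). The difference in line 264 was 1.27 or 0.37 without replicate 1 or 2 at 0 min.

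H2-T23 encodes Qa-1, the nonclassical molecule that CD94/NKG2 receptors read. RAW264.7 had 2589 and 2060 normalized reads at 0 min, 2887 and 2479 at 60 min and 3822 and 3099 at 120 min. Line 264 had 4232 and 2439, 4184 and 2614, and 4171 and 2702, and line 3205 had 4416 and 2405, 4053 and 2311, and 4364 and 2029. Replicate 1 was 1.17 to 2.15 times replicate 2, with the highest median ratio among the 9 genes, and the libraries of lines 264 and 3205 overlapped between all 3 times. The 120 min log2 difference in RAW264.7 was 0.58 ± 0.42 (adjusted p = 0.48), called only with the replicate block (adjusted p = 0.04). In unstimulated line 3205 it was 0.50 ± 0.38 above RAW264.7 (adjusted p = 0.48, and 0.038 with the replicate block). That difference was 0.06 without line 3205 replicate 1, 0.94 without its replicate 2 and 0.33 without RAW264.7 replicate 2.

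B2m encodes the light chain that every class I molecule needs. RAW264.7 had 36051 and 27871 normalized reads at 0 min, 40134 and 32784 at 60 min and 48176 and 35992 at 120 min. Line 264 had 26756 and 20088, 25853 and 25380, and 30746 and 25807, and line 3205 had 32109 and 21418, 30050 and 22095, and 34589 and 22227. At 60 and 120 min both libraries of each edited line were below both of RAW264.7. Against RAW264.7, line 264 lay at -0.45 ± 0.24 at 0 min, -0.50 ± 0.24 at 60 min and -0.56 ± 0.28 at 120 min, which was called only with the replicate block (adjusted p = 0.31, 0.22 and 0.26 without it, and 0.026, 0.014 and 0.0041 with it). Line 3205 lay at -0.27 ± 0.24 at 0 min, -0.49 ± 0.24 at 60 min and -0.59 ± 0.28 at 120 min. Adjusted p was 0.56, 0.22 and 0.22, and 0.15, 0.015 and 0.0033 with the replicate block, so the 0 min difference was not called. With 1 library left out, the differences for line 264 ran from -0.66 to -0.24 at 0 min, smallest without its replicate 2 or RAW264.7 replicate 1 (-0.24 and -0.27), and were -0.35 at 120 min without RAW264.7 replicate 1. For line 3205 the difference was -0.27 without its replicate 2 at 60 and at 120 min, and at 120 min -0.91 without its replicate 1 and -0.38 without RAW264.7 replicate 1. The LPS difference at 120 min was 0.39 ± 0.28 in RAW264.7 (adjusted p = 0.47, and 0.028 with the replicate block), and 0.18 to 0.60 with 1 library left out, lowest without replicate 1 at 120 min or replicate 2 at 0 min (0.18 and 0.21). In lines 264 and 3205 the 120 min LPS difference was 0.28 ± 0.28 and 0.08 ± 0.28, not called with or without the block.

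Tapbp encodes tapasin, the chaperone that bridges the empty class I molecule to the peptide pump. RAW264.7 had 6900 and 6488 normalized reads at 0 min, 7459 and 6418 at 60 min and 13911 and 11009 at 120 min. Line 264 had 5647 and 4486, 6105 and 4517, and 7955 and 5251, and line 3205 had 5725 and 4470, 5780 and 4931, and 6017 and 4641. Every library of the edited lines was below every RAW264.7 library of the same time, and by 120 min the RAW264.7 libraries stood apart from all others, as the dendritic cell marker sum did there and the macrophage marker sum did at every time. Tapbp rose 1.85-fold in RAW264.7 at 120 min, by 0.89 ± 0.23 (adjusted p = 0.038). That call was lost without any 1 of the 4 libraries, with log2 differences of 0.72 to 1.06 and adjusted p from 0.075 to 0.24. At 120 min it was 1.91-fold lower in line 264, -0.94 ± 0.23 (adjusted p = 0.025), and 2.34-fold lower in line 3205, -1.23 ± 0.23 (adjusted p = 0.0067). The first of these missed the threshold without RAW264.7 replicate 1 (-0.77) or line 264 replicate 2 (-0.64), each with adjusted p = 0.19. The difference for line 3205 missed it without RAW264.7 replicate 1 (-1.06, adjusted p = 0.069) or line 3205 replicate 2 (-1.04). At 0 and 60 min the differences lay between -0.41 and -0.37 in both lines, called only with the replicate block (adjusted p from 0.0099 to 0.014). Without replicate 2 of the edited line they were -0.24 (264 at 0 min), -0.22 (3205 at 0 min) and -0.18 (264 at 60 min), and without line 264 replicate 1 at 60 min -0.62. The 120 min response minus that of RAW264.7 was -0.53 (95% interval -1.26 to 0.21) in line 264 and -0.82 (-1.56 to -0.09) in line 3205, and neither passed (adjusted p = 1.0 and 0.97, and 0.30 and 0.056 with the replicate block).

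Tap1 encodes a subunit of the TAP peptide pump. In RAW264.7 it had 1461 and 1315 normalized reads at 0 min, 1364 and 1141 at 60 min and 3395 and 2165 at 120 min. Line 264 had 2088 and 1562, 1914 and 1578, and 1893 and 1191, and line 3205 had 2143 and 1695, 1970 and 1836, and 1691 and 1236. The order of the lines turned over: both edited lines were above RAW264.7 in every library at 0 and 60 min, and below it in every library at 120 min. At 60 min line 3205 was 1.52-fold higher, by 0.61 ± 0.18 (adjusted p = 0.049), a call lost without any 1 of the 4 libraries (0.48 to 0.74, adjusted p from 0.086 to 0.25). With the replicate block Tap1 was called in both lines at all 3 times. For line 264 the log2 differences were 0.38, 0.48 and -0.85 (blocked adjusted p = 0.016, 0.0043 and 0.00082), and for line 3205 0.46, 0.61 and -0.91 (0.0057, 0.001 and 0.00056). Without it the 120 min differences had an SE of 0.29 and adjusted p = 0.084 and 0.065. They were -0.53 and -0.58 without RAW264.7 replicate 1, and -0.52 for line 264 without its replicate 2. Unstimulated, the differences were 0.17 and 0.29 without replicate 1 of the edited line, and 0.59 for line 264 without its replicate 2.

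The LPS response of Tap1 at 120 min was 0.97 ± 0.29 in RAW264.7, and the edited lines stood at -0.27 ± 0.29 (264) and -0.40 ± 0.29 (3205). In RAW264.7 its adjusted p was 0.062, and 0.00049 with the replicate block, and the difference was 0.64 without replicate 1 at 120 min. The response of line 264 minus that of RAW264.7 was -1.23 ± 0.40 (95% interval -2.14 to -0.33) and that of line 3205 -1.37 ± 0.40 (-2.27 to -0.46). Neither passed without the block (adjusted p = 1.0 and 0.70), and with the replicate block both did (SE 0.18, adjusted p = 0.033 and 0.014). Both of these differences use the same RAW264.7 libraries. By replicate number, the ratios of Tap1 at 120 min over 0 min were 2.32 and 1.65 for RAW264.7, 0.907 and 0.762 for line 264, and 0.789 and 0.729 for line 3205.

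Tap2, the other pump subunit, moved less. RAW264.7 had 664 and 552 normalized reads at 0 min, 707 and 618 at 60 min and 872 and 669 at 120 min. Line 264 had 1026 and 804, 1046 and 826, and 1021 and 800, and line 3205 had 961 and 662, 983 and 825, and 1002 and 742. Line 264 was above RAW264.7 in every library at 0 and 60 min, by 0.58 ± 0.22 and 0.49 ± 0.22 (adjusted p = 0.12 and 0.18, and 0.0028 and 0.0066 with the replicate block). For line 3205 these were 0.40 ± 0.22 and 0.45 ± 0.22 (adjusted p = 0.30 and 0.22, and 0.021 and 0.011 with the replicate block). At 120 min the libraries of all 3 lines overlapped. Unstimulated line 3205 stood at 0.13 without its replicate 1, 0.67 without its replicate 2 and 0.26 without RAW264.7 replicate 2, and line 264 at 60 min at 0.32 without its replicate 1. The 120 min LPS difference in RAW264.7 was 0.33 ± 0.25 (adjusted p = 0.50, and 0.047 with the replicate block), and 0.14 without replicate 1 at 120 min, 0.53 without replicate 2 there and 0.20 without replicate 2 at 0 min.

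**Figure D3:**
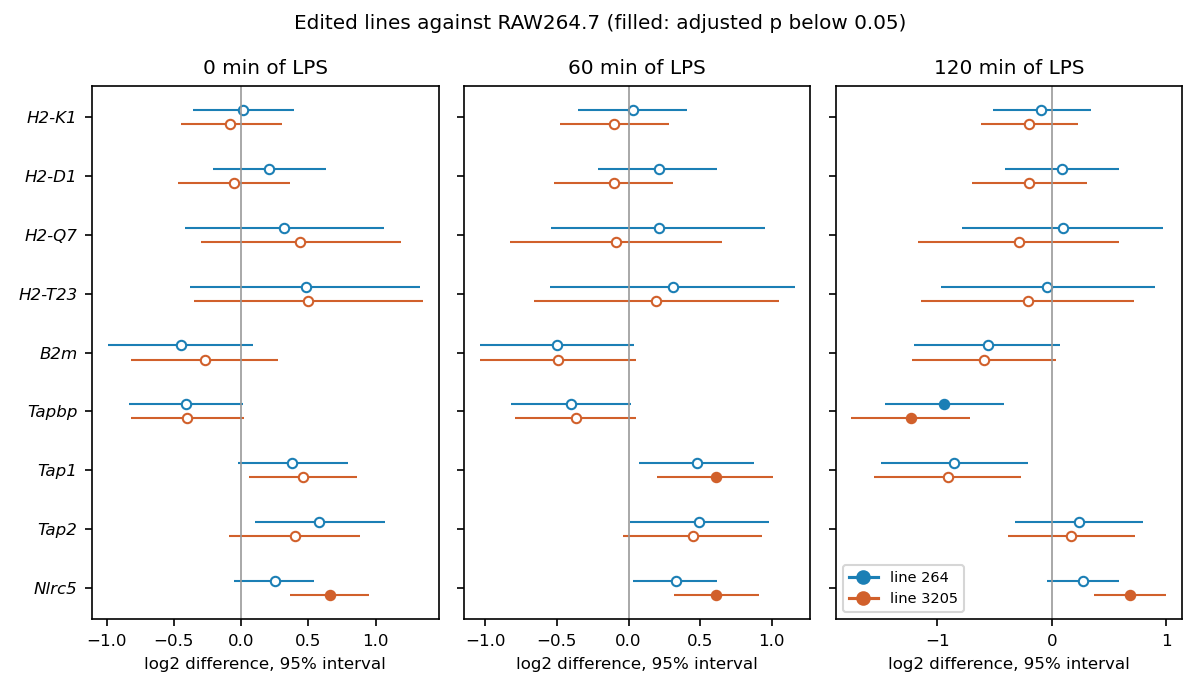
Log2 difference of line 264 and line 3205 from RAW264.7 (x axis, with its 95% interval) for each gene (y axis) at 0, 60 and 120 min of LPS, from the fit without a block. Filled points passed adjusted p below 0.05: Nlrc5 in line 3205 at all 3 times, Tap1 in line 3205 at 60 min, and Tapbp in both lines at 120 min. Tap1 changes side between 60 and 120 min.

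Nlrc5 encodes the transactivator of class I genes. RAW264.7 had 1240 and 1117 normalized reads at 0 min, 1351 and 1112 at 60 min and 1181 and 1009 at 120 min. Line 264 had 1344 and 1448, 1557 and 1518, and 1270 and 1374, and line 3205 had 2012 and 1713, 1852 and 1895, and 1794 and 1715. Libraries of line 3205 were above those of the other lines at every time, with line 264 in between and above RAW264.7 at each time. The B cell and neutrophil marker sums given above were also highest in line 3205. Those sums were mostly Cd79b and S100a8, and the other listed B cell and neutrophil markers in the tables stayed low. Against RAW264.7, line 3205 was 1.58-fold higher at 0 min (0.66 ± 0.13, adjusted p = 0.0089), 1.53-fold at 60 min (0.61 ± 0.13, adjusted p = 0.012) and 1.61-fold at 120 min (0.68 ± 0.14, adjusted p = 0.01). At 0 min this missed the threshold without RAW264.7 replicate 2 (0.58, adjusted p = 0.075) or line 3205 replicate 1 (0.54, adjusted p = 0.054). At 60 min it did so without RAW264.7 replicate 2 (0.47, adjusted p = 0.10) or either library of line 3205 (0.63 and 0.60, adjusted p = 0.065 and 0.079). At 120 min it did so without RAW264.7 replicate 2 (0.57, adjusted p = 0.079) or line 3205 replicate 1 (0.65, adjusted p = 0.06). Line 3205 against line 264 was 0.41 ± 0.13 at 0 min and 0.41 ± 0.14 at 120 min (adjusted p = 0.086 and 0.12, and 0.023 and 0.033 with the replicate block). Line 264 against RAW264.7 was 0.33 ± 0.13 at 60 min (adjusted p = 0.14, and 0.05 rounded up, under the threshold, with the replicate block). Nlrc5 was called after LPS in no line at 60 or 120 min, with or without the replicate block. At 120 min the responses of lines 264 and 3205 minus that of RAW264.7 were both 0.03 ± 0.20 (95% interval -0.41 to 0.47).

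Other genes of the pathway were taken as 5 lists. In each comparison up to 2 called genes per list, with at least 50 normalized reads on average in the higher group, are named by rule, and others are marked as named after their values were seen. Of 16 factors of class I promoters and interferon signalling, Nfkb1, Rela and Irf8 rose after 120 min in line 264, where 2.88% of all genes rose. Nfkb1 and Rela rose in line 3205 (2.89%). Of the 16, 3 rose and 0 fell in RAW264.7 (5.08% of all genes rose). In RAW264.7 they were Nfkb1 (2.22 ± 0.16, adjusted p = 4.1e-05) and Rela (0.98 ± 0.16, adjusted p = 0.0039), which encode NF-kB subunits, and Irf1, an interferon regulatory factor that binds class I promoters (3.54 ± 0.65, adjusted p = 0.0077, described after its values were seen, and held in 1 of 4 fits that left out a library). Irf1 had 738 and 731 normalized reads at 0 min in RAW264.7, 1245 and 869 at 60 min and 10458 and 7006 at 120 min. Line 264 had 701 and 490, 1098 and 831, and 2099 and 364, and line 3205 had 770 and 624, 1360 and 1108, and 1014 and 507. The 120 min libraries of RAW264.7 stood far above all others. At 120 min Irf1 was lower than in RAW264.7 by a log2 difference of -3.29 ± 0.65 in line 264 and -3.58 ± 0.65 in line 3205 (adjusted p = 0.0084 and 0.0056). Without RAW264.7 replicate 1 these missed the threshold (adjusted p = 0.075 and 0.055). The difference for line 264 ran from -4.55 to -2.03 over the libraries left out. Of the 16 factors 3 were lower and 1 higher in line 264 at 120 min (6.13% and 7.33% of all genes). In line 3205 5 were lower and 0 higher (5.99% and 7.94% of all genes). Nfkb1 was among the 5, at -1.11 ± 0.16 (adjusted p = 0.0015, and called without each library in turn), while Rela was higher in line 264 by 0.77 ± 0.16 (adjusted p = 0.01). Stat2, named after its values were seen, stood at -1.45 ± 0.52 in line 264 (adjusted p = 0.10, and 0.0018 with the replicate block). It ran from -2.24 to -0.66 there with 1 library left out. The others called without the block, also named after their values were seen, were Irf2 (-0.85 ± 0.20 and -0.83 ± 0.20 in lines 264 and 3205) and Irf9 (-1.01 ± 0.28 and -1.18 ± 0.28) in both lines, and Stat2 (-2.12 ± 0.52) in line 3205. These 5 calls held in 1 or 2 of the 4 fits that left out a library and were all lost without RAW264.7 replicate 1; without line 264 replicate 2 Irf9 was -0.53 there. Irf8, named likewise after its values were seen, rose in line 264, from 1890 and 2360 normalized reads to 9678 and 4537, by 1.65 ± 0.37 (adjusted p = 0.033, and held in 1 of 4 fits that left out a library). Its difference was 0.64 ± 0.37 in RAW264.7 and 0.85 ± 0.37 in line 3205, not called, and against RAW264.7 at 120 min it stood at 0.44 ± 0.37 in line 264 and -0.16 ± 0.37 in line 3205, also not called. Nfkb1 still rose after 120 min in line 264 (1.67 ± 0.16) and line 3205 (1.30 ± 0.16), and Irf1 stood at 0.58 ± 0.65 and 0.05 ± 0.65 there, not called. Those Irf1 values turn with 1 library, to 1.84 or -0.68 in line 264 without replicate 2 or 1 at 120 min, and to between -0.45 and 0.55 in line 3205. The difference of Irf1 responses from RAW264.7 was not called in either line. Unstimulated, Nfya, a Y box subunit, was lower in line 3205 by -0.86 ± 0.17 (adjusted p = 0.0088) and Rela higher in line 264 by 0.64 ± 0.14 (adjusted p = 0.012). Each of these calls held without 2 of the 4 libraries and was lost without the other 2. At 60 min Nfya was also lower in line 3205 than in RAW264.7, by -0.99 ± 0.17 (adjusted p = 0.0039). With 1 library left out that difference ran from -1.12 to -0.86. At 120 min Nfya was not called. Rela rose at 60 min in all 3 lines (1.25, 1.05 and 1.31, each ± 0.14). It was the single factor called after LPS there in each, where 2.98%, 1.19% and 1.23% of all genes were called.

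Of 17 tested among 23 other class I and class I-like heavy chains, 4 rose after 120 min in RAW264.7, where 5.08% of all genes rose. In line 264 1 rose (2.88% of all genes), in line 3205 2 did (2.89%), and 0 fell in any line. The medians were 0.66, 0.11 and 0.18, where those of all tested genes were 0.0, -0.01 and -0.03. H2-Q4 rose in all 3 lines, by 0.66, 0.65 and 0.76, each ± 0.13 (adjusted p = 0.012, 0.021 and 0.01). H2-K2 rose by 0.95 ± 0.19 in RAW264.7 and 0.77 ± 0.19 in line 3205 (adjusted p = 0.01 and 0.047). These share sequence with the members, and the calls of H2-K2 in both lines and of H2-Q4 in line 264 were lost without any 1 of the 4 libraries compared. That of H2-Q4 held without 1 of the 4 in RAW264.7 and without 2 of the 4 in line 3205. Hfe, a class I-like protein of iron uptake, was lower in line 264 than in RAW264.7 at 0, 60 and 120 min (-1.46 ± 0.29, -1.52 ± 0.29 and -1.43 ± 0.31, adjusted p = 0.0087, 0.0062 and 0.014), calls that held without 2, 3 and 1 of the 4 libraries in turn and were lost each time without line 264 replicate 2. H2-T22 was higher in unstimulated line 3205 by 0.98 ± 0.29 (adjusted p = 0.047), a call lost without either RAW264.7 library or line 3205 replicate 1 (1.11, 0.86 and 0.65).

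For the lists that follow, the share of all genes called was 13.2% to 15.4% between an edited line and RAW264.7. It was 9.0% to 10.4% between the edited lines and 1.19% to 10.6% after LPS. Of 5 immunoproteasome genes, Psmb8, a catalytic subunit of the protease that cuts class I peptides, was the one called in any comparison. Unstimulated RAW264.7 had 1910 and 1733 normalized reads, line 264 had 2376 and 2265, and line 3205 had 3123 and 2873. After 60 min RAW264.7 stood at 1900 and 1743, line 264 at 2414 and 2304 and line 3205 at 3114 and 2800, and no libraries of different lines overlapped at either time. Psmb8 was higher in line 3205 than in RAW264.7 by 0.72 ± 0.11 at 0 min and 0.70 ± 0.11 at 60 min (adjusted p = 0.002 and 0.0023), and both calls held without each library in turn. In line 264 it was higher by 0.37 ± 0.11 at 60 min (adjusted p = 0.049), a call lost without any 1 of the 4 libraries. After 120 min the Psmb8 difference from RAW264.7 was smaller, 0.27 ± 0.18 for line 3205 and -0.09 ± 0.18 for line 264. Neither was called (adjusted p = 0.4 and 0.83), and libraries of different lines overlapped by then. Of 6 genes of peptide loading and trimming none was called between an edited line and RAW264.7 or after LPS. Lnpep, a trimming peptidase, was lower in line 3205 than in line 264 by -0.60 ± 0.10 at 0 min and -0.41 ± 0.10 at 60 min (adjusted p = 0.0033 and 0.023), the first in all 4 fits that left out a library and the second in 0 of 4. Of 6 tested cytosolic peptidases Tpp2 was higher in line 264 than in RAW264.7 at 0 and 120 min (0.60 ± 0.17 and 0.79 ± 0.20, adjusted p = 0.04 and 0.028), calls that held in 0 of 4 and 1 of 4 fits that left out a library.

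Likeness was measured for each member as Pearson's r of log2(normalized reads + 1) over the 12 libraries at 0 and 120 min against 11278 other genes. These libraries share lines, times and replicate numbers, so r is a description. Tapbp was closest to Ifi35 (0.98), Sppl2a (0.97) and Clec2d (0.97), and Tap1 to Trim34a (0.94), Dtx3l (0.92) and Igtp (0.91). In the 12 libraries at 0 and 60 min, r was 0.86 for Ifi35 with Tapbp and 0.60, 0.54 and 0.53 for the 3 genes with Tap1. H2-K1 was closest to Smim3 (0.99), Cdc42ep2 (0.98) and H2-K2 (0.97), of which Smim3 fell to 0.47 at 0 and 60 min. H2-D1 was closest to Gm8909 (0.97), Zc3h10 (0.96) and H2-Q2 (0.96), and H2-Q7 to Smim7 (0.96), Tbrg1 (0.94) and H2-Q2 (0.94). B2m had Dpep2 (0.97), Bre (0.97) and Ifitm2 (0.96), H2-T23 had Stx8 (0.94), 1110051M20Rik (0.92) and Sp100 (0.92), Tap2 had Gm2619, Galk1 and Lgals3bp (0.93 each) and Nlrc5 had Spire2 (0.98), Fblim1 (0.96) and Ankrd33b (0.96).

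In the authors' deposited tables no member had an adjusted p below 0.05 in any of the 10 cell line comparisons. The p-values of the authors' deposited tables equal those of a test of an absolute log2 fold change above 1, to within 3.4e-06, so they ask for a larger change than the limma test. For Tapbp at 120 min the authors' deposited table gives log2 fold changes of -0.92 in line 264 and -1.23 in line 3205 against RAW264.7, each with an SE of 0.25.

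In primary macrophages H2-Q7 was the one member with a row in the tables that pair ChIP with RNA, of 193 genes in the table for 60 min and 195 in that for 120 min. Both of the authors' deposited tables give its RNA a log2 fold change of 2.20 and an adjusted p of 1.9e-14, so the time behind it cannot be told, and the table for 120 min adds an SE of 0.15. It ranked 118 of 193 by fold change, and 187 of those genes had a positive one, so the table is itself a choice of genes that rise. No replicate ChIP library had values, so the ratios below have no test and no error.

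H3S31ph is phosphorylation of serine 31 of H3.3, a residue other H3 histones lack. Its signal at H2-Q7 was 2.297 at 0 and 4.664 at 60 min, a ratio of 2.03 where the median of the 193 genes was 3.83, rank 146 from the highest. H3S28ph, another LPS-linked phosphorylation, went from 3.17 to 13.0, a ratio of 4.11 against a median of 2.58, and both levels were the highest of the 193 genes. H3.3 signal went from 1.99 to 2.28, a ratio of 1.15 against 1.96, from the highest 0 min level of the 193 genes to rank 100 at 60 min. H3K36me3, a mark of transcribed gene bodies, went from 0.8602 to 1.723, a ratio of 2.003 against 1.587, and H3K36me2 from 1.295 to 1.521 (1.174 against 1.004). H3K27ac, a mark of active promoters and enhancers, went from 1.55 to 1.68, a ratio of 1.08 against 1.16. H2-Q7 thus lay below the table's median ratio for H3S31ph, H3.3 and H3K27ac and above it for H3S28ph, H3K36me3 and H3K36me2. Divided by the H3.3 ratio of the same gene, its ratios were 1.77 for H3S31ph and 3.58 for H3S28ph. No median of this quotient over the table was taken. The H3.3 ratio of H2-Q7 ranked 183 of 193 from the highest, so both quotients are larger than division by the median H3.3 ratio would give. H2-Q7 shares sequence with its neighbours, which bears on ChIP reads as on RNA.

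**Figure D4:**
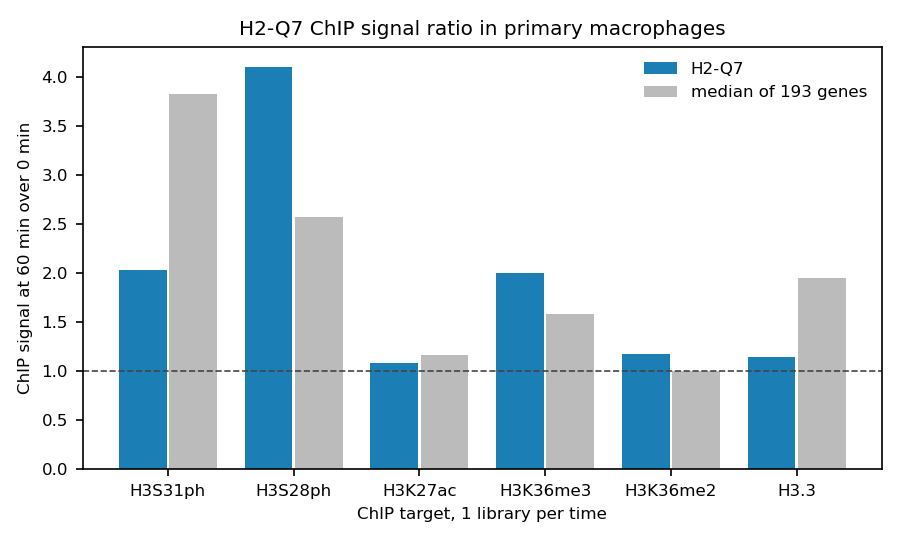
Ratio of deposited ChIP signal at 60 min to that at 0 min (y axis, from 0) for each target (x axis) at H2-Q7 in primary macrophages, beside the median of the 193 genes of the table; the dashed line marks a ratio of 1 and there is 1 library per target and time, with no error bar. H3S28ph is the target with the largest ratio at H2-Q7, at 4.11, and H3S31ph stands at 2.03, below the median of 3.83.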

How the data were processed

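RNA was measured in 18 cell line libraries and chromatin in 12 ChIP libraries of primary macrophages. The submitters' processing notes list, without roles, Trim Galore 0.5.0, STAR 2.4.2, Subread 1.4.6 with featureCounts, DESeq2, R 3.4.0, Bowtie2 2.3.4.1, deepTools 2.5.4, Picard 2.14.0, SAMtools 1.5 and the mm10 build. The deposited RNA signal is a library's count of reads per gene over 1 size factor: rescaling gave whole reads for 100.0% of values within 0.1 read. No source used here gives the authors' scaling of the deposited ChIP signal. Fold changes (log2), their errors, a score and p-values, raw and adjusted, are the authors' own per the file headers. Unstimulated values were equal in both tables within a relative 1e-06.

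limma 3.58.1 with an intensity trend was run in R 4.3.3 on log2(value + 1) over the 12 libraries of each table, for 17301 and 17450 genes with a mean of at least 1. The 19 comparisons were 6 LPS responses, 9 between lines and 4 differences of responses. Groups follow the labels, and the members and lists were chosen with earlier results of these data known. The text names all 9 members, the edited genes, 3 like genes per member and, by rule, up to 2 called genes of each of 5 lists per comparison; Irf1, Irf2, Irf8, Irf9 and Stat2 were named in further comparisons after their values were seen. Replicate numbers come from the labels, which do not say what they mark. Replicate 1 minus 2 correlated between groups over 15 pairs of groups with r from 0.16 to 0.56 (60 min table) and 0.22 to 0.56 (120 min table), so the numbers were taken as pairing the libraries. Alternatives tried were a fit with the replicate block, TMM scaling, pseudocounts of 0.5 and 5, limma with no trend, all genes with no filter, a fit to the compared groups alone, edgeR 4.0.16 and DESeq2 1.42.0 on the recovered reads, and each library left out; fits of all 18 libraries together were added after the data were seen. limma with and without the block, and edgeR without it, were run on simulated counts with changes placed in stimulated RAW264.7 only. Those counts held no shift shared by replicate number, so they do not show how the block performs on such a shift. Python 3.11.15, numpy 2.4.6, pandas 2.3.3 and matplotlib 3.10.9 made tables and plots.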

Additional observations from a re-analysis of the deposited data

How the results depend on the processing

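With 2 libraries a group the spread is poorly known, and the number of members called moved most with the replicate block. Main counts of 0, 1 and 0 (264 and 3205 against RAW264.7, and 3205 against 264, unstimulated), 0 and 2 (264 and 3205 against RAW264.7 at 60 min), 2, 0 and 0 (LPS for 120 min in RAW264.7, 264 and 3205), 1, 2 and 0 (lines at 120 min) and 0 and 0 (response differences at 120 min) became 4, 5, 1, 5, 5, 8, 3, 2, 3, 4, 1, 1 and 1 with the replicate block in limma. They became 5, 5, 1, 5, 5, 7, 3, 2, 3, 4, 1, 1 and 1 in edgeR with the replicate block. In 1 fit of all 18 libraries with the replicate block they became 4, 4, 1, 5, 5, 8, 4, 3, 3, 4, 1, 1 and 2, plus 1 for 3205 against 264 at 60 min. Without the block, that joint fit gave 4, 1 and 1 for LPS at 120 min in RAW264.7, 264 and 3205, 2 for 264 and 3 for 3205 against RAW264.7 at 120 min and 1 for 3205 against RAW264.7 at 60 min. DESeq2 gave 4, 1 and 1 for the same LPS responses, 2 for 264 and 3 for 3205 against RAW264.7 at 120 min and 1 for 3205 against 264 at 0 and at 120 min. Fits of only the groups compared gave 0 for 3205 against RAW264.7 at 0 min, 0 for 264 and 1 for 3205 against RAW264.7 at 120 min. limma without the trend gave 0 for LPS at 120 min in RAW264.7, 0 for 264 against RAW264.7 at 120 min and 1 for 3205 against RAW264.7 at 60 min. With no filter on low values the count was 1 for LPS at 120 min in RAW264.7 and 1 for 3205 against RAW264.7 at 60 min, as it was in edgeR for the latter. TMM scaling and pseudocounts of 0.5 and 5 left each of the 19 counts as it was. The 60 min LPS responses and 60 min response differences gave 0 members called under every alternative run.

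Leaving out 1 library at a time, the count ran from 0 to 0 for LPS at 120 min in RAW264.7, from 0 to 1 for 3205 against RAW264.7 at 0 and 60 min, from 1 to 1 at 120 min, and from 0 to 2 for 264 against RAW264.7 at 120 min. Of 61 log2 differences of members and 57 of other genes, 11 changed sign in 26 such fits, none of them called; their main size was at most 0.58 and the reversed size at most 0.68. Over those fits Tap1 (LPS at 120 min in line 264) ran from -0.60 to 0.07. The response differences for 264 and 3205 ran from -0.24 to 0.03 and from -0.36 to 0.12 for H2-K1, from -0.28 to 0.05 and from -0.40 to 0.11 for H2-D1, and from -0.08 to 0.14 and from -0.09 to 0.14 for Nlrc5. Irf1 (LPS at 120 min) ran from -0.68 to 1.84 in line 264 and from -0.45 to 0.55 in line 3205, and Irf8 against RAW264.7 at 120 min from -0.11 to 0.99 and from -0.56 to 0.25.

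ChIP ratios at H2-Q7 over the table's median ratio were 0.53 (H3S31ph), 1.59 (H3S28ph), 0.934 (H3K27ac), 1.26 (H3K36me3), 1.17 (H3K36me2) and 0.586 (H3.3). Over the H3.3 ratio they were 1.77, 3.58, 0.946, 1.75 and 1.02, with no median of the table taken for this quotient. The first division moves all genes of a target alike, so it only restates where H2-Q7 lies against the median.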
